A study of Rattus norvegicus with 12 samples.

Results

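The genes described here are 10 genes of vasopressin and cAMP signalling in rat kidney, measured in 4 strains: the receptors Avpr2 and Avpr1a, the adenylyl cyclases Adcy3, Adcy6 and Adcy9, the phosphodiesterases Pde1a, Pde3a and Pde4b, the protein kinase A subunit Prkar1a and the transcription factor Creb1. Every probe set annotated to 1 of these genes and to no other was taken, which gave 18 of the 31042 probe sets on the array, and 10 of 14217 named genes. A probe set is a group of short probes for 1 transcript, and its value is a log2 signal. PCK is derived from Sprague Dawley and bears a Pkhd1 mutation; Pkhd1 is mutated in recessive polycystic kidney disease. SD is the Sprague Dawley stock. FHH.Pkhd1 is the congenic strain FHH.PCK-(D9Rat35-D9Rat70)/Mcwi, which has a PCK segment of chromosome 9 on the Fawn Hooded Hypertensive background, and FHH is that background strain. All animals were 30 days old and had been fed 5LOD diet. Both kidneys of 6 animals of a strain were collected, their RNA was pooled, and each pool was hybridised to 3 arrays. The 3 arrays of a strain are thus technical replicates, and every error and p-value below measures the spread between arrays of 1 pool, with nothing on the spread between animals.

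In the collecting duct, vasopressin binds the V2 receptor, which acts through the stimulatory G protein on adenylyl cyclase. The cAMP formed activates protein kinase A, which moves the water channel Aqp2 to the apical membrane and phosphorylates CREB, and phosphodiesterases end the signal by breaking cAMP down. In polycystic kidneys cAMP promotes fluid secretion and proliferation of cyst epithelium, and blockers of the V2 receptor slow cyst growth in rodent models, the PCK rat among them.

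CREB binds the cAMP response element, TGACGTCA, or its 5-letter core TGACG, which reads CGTCA on the other strand. The core is part of the full element. RefSeq promoter sequences of the GRCr8 assembly were at hand for 8 of the 10 genes, as 10 entries, and the 250 bases before each start were searched on both strands. None of the 10 held the full element, which was present in 1.59% of 33469 rat promoters. The core was found in 3, belonging to Creb1, Avpr1a and Adcy9, against 18.2% of all promoters. The promoters of the 3 genes whose signal changed between pools are shown, 5′ to 3′, with the core in capitals. Creb1 has 2 entries, and the one that holds the core is shown, chr9:73397259-73397508 on the plus strand. The other, chr9:73414978-73415227, holds none. Of the others, the promoter of Avpr1a is chr7:59999493-59999742 on the plus strand, and that of Pde1a is chr3:85431779-85432028 on the minus strand.
Creb1: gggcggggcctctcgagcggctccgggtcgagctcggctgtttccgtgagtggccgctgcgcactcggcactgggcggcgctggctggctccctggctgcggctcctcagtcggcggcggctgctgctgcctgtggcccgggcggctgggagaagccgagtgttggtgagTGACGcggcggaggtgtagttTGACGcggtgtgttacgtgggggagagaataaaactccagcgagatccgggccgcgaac
Avpr1a: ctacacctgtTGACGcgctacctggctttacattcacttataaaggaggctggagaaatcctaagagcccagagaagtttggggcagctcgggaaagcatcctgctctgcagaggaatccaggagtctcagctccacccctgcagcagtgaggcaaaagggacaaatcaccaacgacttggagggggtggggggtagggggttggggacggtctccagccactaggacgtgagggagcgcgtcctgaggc
Pde1a: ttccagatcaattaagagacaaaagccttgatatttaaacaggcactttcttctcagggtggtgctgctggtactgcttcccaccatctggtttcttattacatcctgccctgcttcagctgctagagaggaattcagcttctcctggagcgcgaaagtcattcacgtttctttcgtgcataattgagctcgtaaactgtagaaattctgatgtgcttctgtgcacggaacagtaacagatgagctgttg
The Creb1 entry shown held the core 2 times and Avpr1a 1 time, while these letters were not in the window of Pde1a. A match of 5 letters is a description of the sequence and not evidence of binding.

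Arrays of 1 pool correlated at 0.997 to 0.998 over all probe sets, those of different pools at 0.986 to 0.996, and no 2 arrays were identical. Array medians were 6.41 to 6.46. Over 12 probe sets, the poly-A RNA added as a spike-in averaged 10.86 ± 0.08 in PCK, 10.50 ± 0.08 in SD, 10.04 ± 0.11 in FHH.Pkhd1 and 11.14 ± 0.02 in FHH (log2, SD, n = 3 arrays). The 3′ minus 5′ signal of the actin control, a sign of RNA quality, was 1.33 ± 0.02 in PCK, 1.10 ± 0.03 in SD, 1.20 ± 0.02 in FHH.Pkhd1 and 1.39 ± 0.02 in FHH (log2, SD, n = 3 arrays). It was thus higher in PCK than in SD and lower in FHH.Pkhd1 than in FHH, beyond the spread between arrays, and the part of both measures in the differences below was not tested. The kidney markers fixed for the thick ascending limb and the proximal tubule were at or above the 40th percentile of all values, 5.74, in every pool, with 6 of 6 measured in each list. That percentile serves below as a detection level. It is not a measured background, and a signal under it may be real. The annotation used names no probe set for Pkhd1, so the mutated gene could not be read as a check of the labels.

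The signals of the 18 probe sets ran from 2.63 to 11.31, and SDs between arrays from 0.01 to 0.43. Of the 18, 10 reached the detection level in every pool, 2 in some pools (Avpr1a and the second probe set of Pde4b) and 6 in none. Those 6 were the single probe sets of Pde1a and Pde3a, the second one of Avpr2, and all but 1 of the 4 for Creb1. Each was kept and tested.

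**Figure D1:**
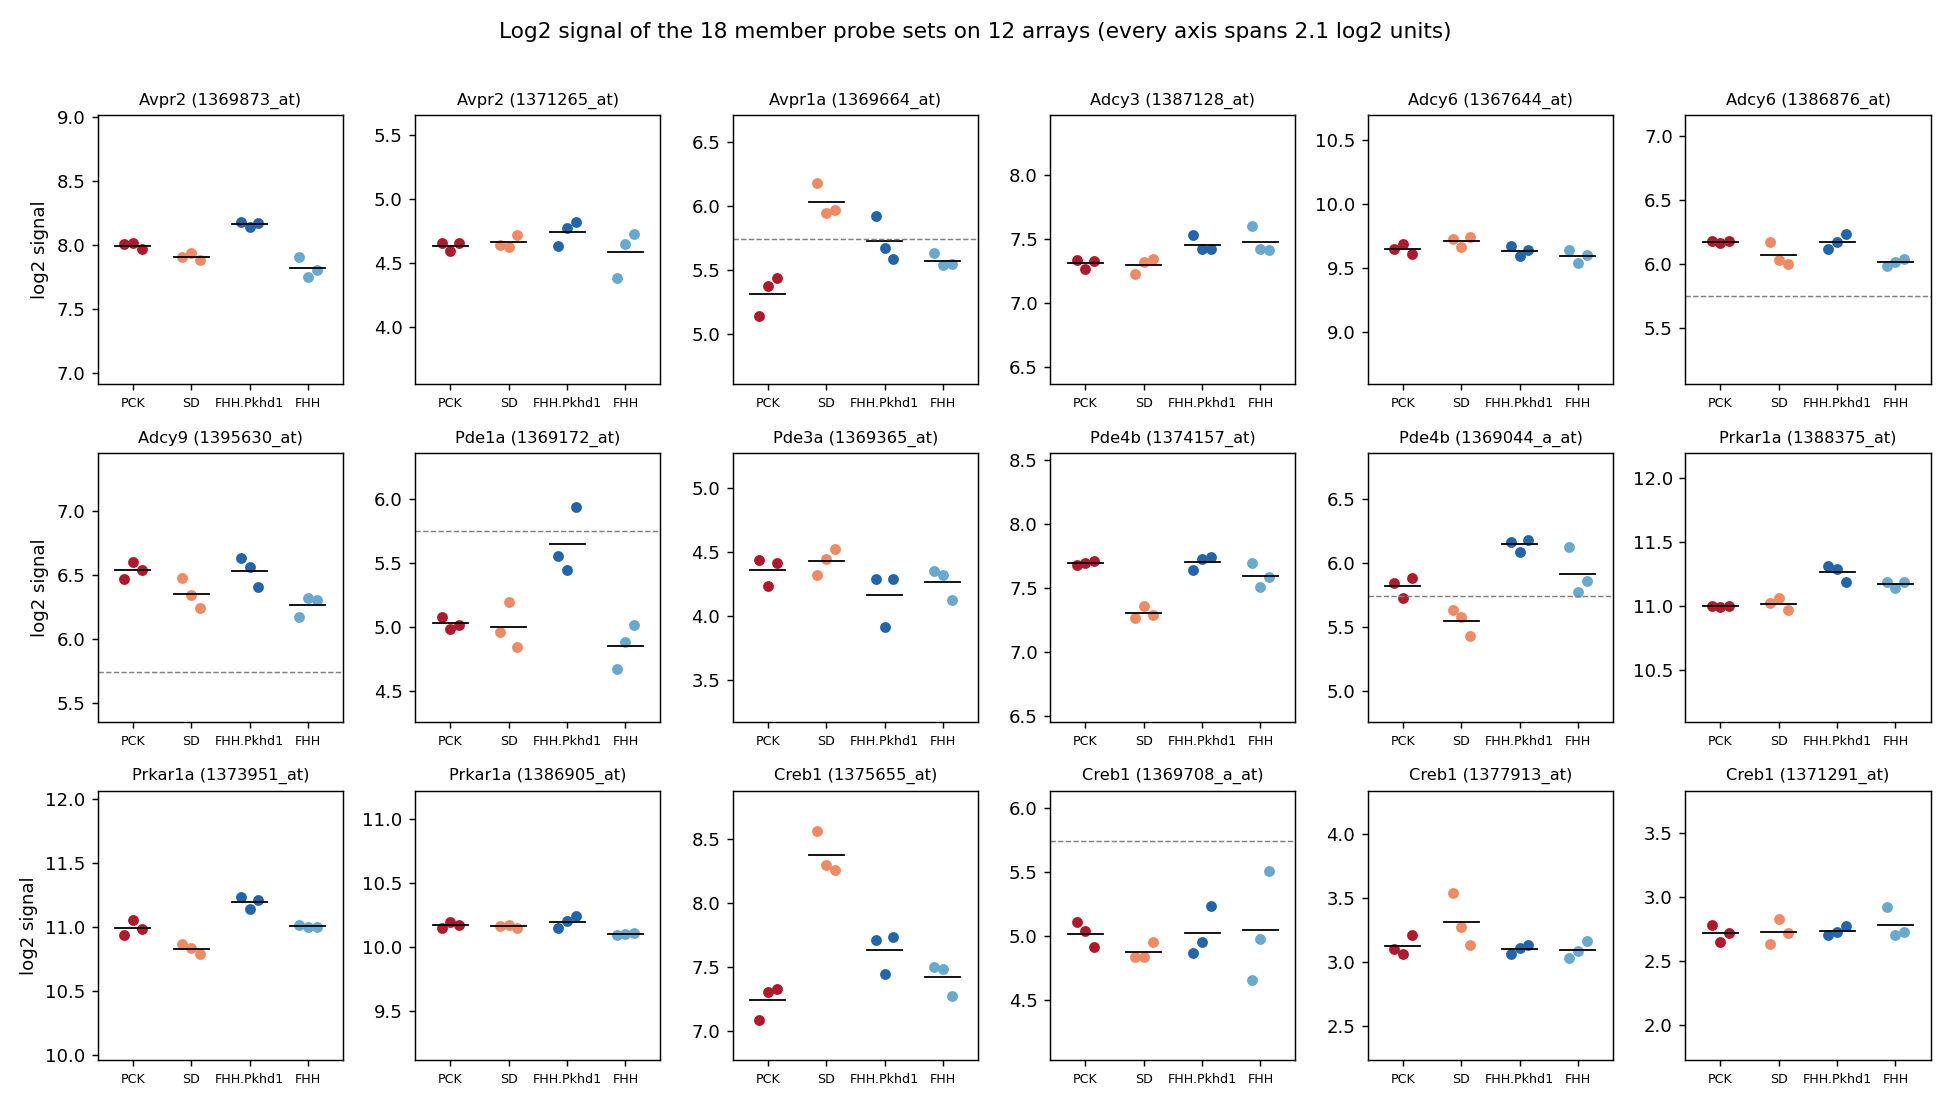
Log2 signal (vertical axes) of each of the 18 probe sets on the 12 arrays, with 1 point per array and a line at the mean of the 3 arrays of a pool; the dashed line is the detection level of 5.74. SD stands above the other pools in Creb1 (1375655_at) and FHH.Pkhd1 above them in Pde1a, while the Adcy6 panels are nearly level.

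A probe set was called when its limma p, adjusted by Benjamini and Hochberg over all 31042 probe sets, was under 0.05 and its difference reached 1.5-fold. In PCK minus SD, 2 of the 18 were called, both lower, where 2.52% of all probe sets were called and 1.21% called lower. FHH.Pkhd1 minus FHH had 1 of 18, higher, with 1.3% of all probe sets called and 0.612% called higher. PCK minus FHH.Pkhd1 had 1 of 18, lower (5.06% of all, 2.76% lower), and SD minus FHH had 1 of 18, higher (2.68% of all, 1.29% higher). The difference of the 2 mutant comparisons, PCK minus SD less FHH.Pkhd1 minus FHH, had 3 of 18, all negative (4.71% of all, 2.38% lower). These calls came from 3 genes, Creb1, Avpr1a and Pde1a. Without the fold limit, 5 of 18 passed in PCK minus SD (18.7% of all probe sets), 4 of 18 in FHH.Pkhd1 minus FHH (11.2%), 7 of 18 in PCK minus FHH.Pkhd1 (36.1%), 6 of 18 in SD minus FHH (21%) and 5 of 18 in the difference of differences (17.4%). The arrays of PCK and SD did not overlap in 6 of the 18, against 34.4% of all probe sets, and those of FHH.Pkhd1 and FHH in 7, against 29.2%. The arrays of PCK and FHH.Pkhd1 did not overlap in 8 (49.2% of all), nor those of SD and FHH in 9 (37.5%). The median absolute log2 difference was 0.10 for the members and 0.09 for all probe sets in PCK minus SD, and 0.13 and 0.08 in FHH.Pkhd1 minus FHH. It was 0.13 for the members and 0.14 for all probe sets in PCK minus FHH.Pkhd1. SD minus FHH gave 0.16 and 0.10, and the difference of differences 0.11 and 0.13.

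**Figure D2:**
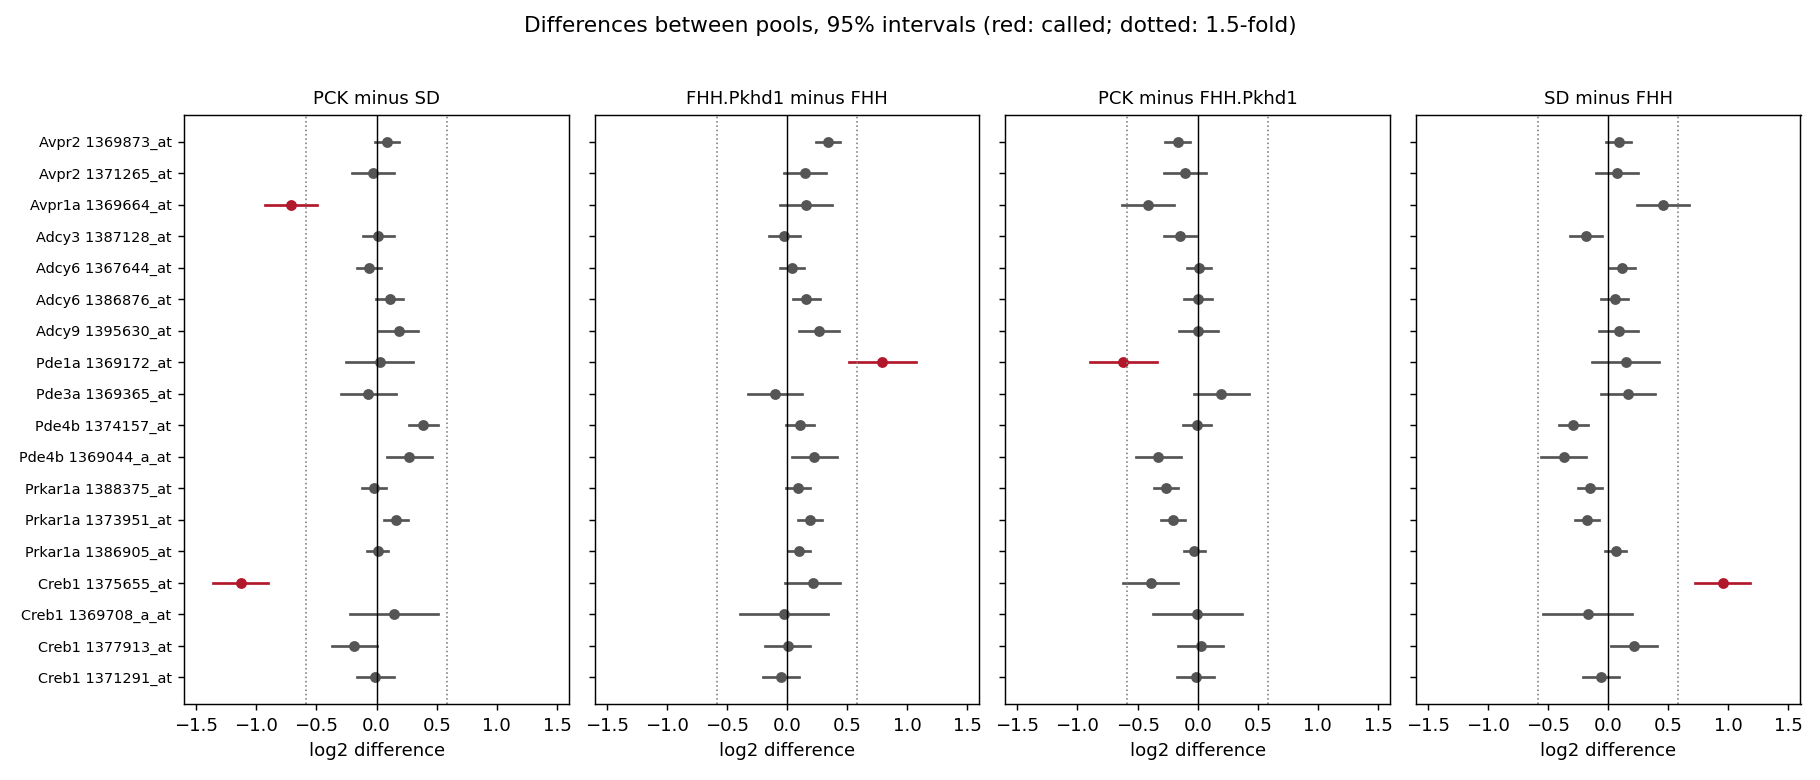
Log2 difference (horizontal axes) of the 18 probe sets in the 4 comparisons of pools, with 95% intervals from the limma fit; dotted lines mark 1.5-fold and red marks calls. Most points lie inside the dotted lines, and Creb1 (1375655_at) is the farthest from 0, at -1.13 in PCK minus SD and 0.95 in SD minus FHH, which share the SD arrays.

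Avpr2 encodes the V2 receptor, the Gs-coupled receptor of the collecting duct. Its stronger probe set, 1369873_at, read 8.01, 8.01 and 7.97 in PCK, 7.91, 7.94 and 7.89 in SD, 8.18, 8.14 and 8.17 in FHH.Pkhd1, and 7.91, 7.75 and 7.81 in FHH (log2). The 3 FHH.Pkhd1 arrays lay above every other array, and SD and FHH overlapped. The difference was 0.34 ± 0.05 (SE, limma adjusted p = 0.000632) in FHH.Pkhd1 minus FHH, which is 1.27-fold and under the limit for a call. In PCK minus SD it was 0.09, with a 95% interval of -0.02 to 0.19 (limma adjusted p = 0.259). PCK minus FHH.Pkhd1 gave -0.17 ± 0.05 (SE, limma adjusted p = 0.0175), also short of 1.5-fold. The second probe set, 1371265_at, stayed at 4.38 to 4.82, below the detection level, and passed in no comparison.

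Principal cells are the cells of the collecting duct that carry the V2 receptor. Over 8 principal cell markers, all at the detection level in every pool, the mean log2 signal ranged over arrays from 10.18 to 10.19 in PCK, 9.84 to 9.88 in SD, 10.35 to 10.38 in FHH.Pkhd1 and 10.09 to 10.12 in FHH. The list was therefore higher in both mutant pools than in their controls, and its part in the Avpr2 values was not tested. In whole kidney RNA, fewer cells of a type and less RNA per cell cannot be told apart.

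Avpr1a encodes the V1a receptor, which signals through Gq and calcium in vascular smooth muscle and is also found in intercalated cells. Its only probe set, 1369664_at, read 5.14, 5.38 and 5.43 in PCK, against 6.18, 5.95 and 5.97 in SD. It read 5.93, 5.67 and 5.58 in FHH.Pkhd1, against 5.63, 5.54 and 5.55 in FHH. The PCK arrays were the lowest and the SD arrays the highest of all 12, with no overlap between the 2, whereas FHH.Pkhd1 and FHH overlapped. The Avpr1a signal was lower in PCK than in SD by 0.72 ± 0.10 on the log2 scale (SE, limma adjusted p = 0.000288). In FHH.Pkhd1 minus FHH the difference was 0.15, with a 95% interval of -0.06 to 0.37. The other 2 comparisons gave -0.41 ± 0.10 (PCK minus FHH.Pkhd1, SE, limma adjusted p = 0.00691) and 0.46 ± 0.10 (SD minus FHH, SE, limma adjusted p = 0.00595), neither of them 1.5-fold. PCK, FHH.Pkhd1 and FHH averaged 5.32, 5.73 and 5.57, below the detection level, and only the SD mean of 6.03 was above it, so no fold is given.

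Markers of the cells that express Avpr1a were read beside it. The mean of 5 intercalated cell markers ranged from 9.43 to 9.53 in PCK and 9.16 to 9.17 in SD, and from 9.66 to 9.71 in FHH.Pkhd1 and 9.38 to 9.44 in FHH. That list was higher in PCK than in SD, with 1 of 5 called higher, where 2.52% of all probe sets were called. Smooth muscle markers ranged from 6.77 to 6.87 in PCK and 6.72 to 6.80 in SD, and none of 6 was called there by limma. Of those 6, 4 reached the detection level. The part of either cell type in the Avpr1a values was not tested.

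The adenylyl cyclases make cAMP, and none of their 4 probe sets was called in any comparison. Adcy6 is a calcium-inhibited cyclase that forms cAMP in response to vasopressin in the collecting duct. Probe set 1367644_at averaged 9.65 ± 0.04 in PCK, 9.71 ± 0.04 in SD, 9.64 ± 0.04 in FHH.Pkhd1 and 9.59 ± 0.05 in FHH (log2, SD, n = 3 arrays). Its difference was -0.06 in PCK minus SD (95% interval -0.16 to 0.04) and 0.04 in FHH.Pkhd1 minus FHH (-0.06 to 0.14). The weaker probe set 1386876_at gave 0.11 and 0.16 in the same comparisons, neither with an adjusted p under 0.05.

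Adcy3, a calcium-regulated cyclase best known from olfactory neurons, averaged 7.31 in PCK, 7.30 in SD, 7.46 in FHH.Pkhd1 and 7.48 in FHH. Both SD-derived pools were thus below both FHH-background pools in mean. The log2 difference was -0.15 ± 0.06 for PCK minus FHH.Pkhd1 (SE, limma adjusted p = 0.0805) and -0.18 ± 0.06 for SD minus FHH (SE, limma adjusted p = 0.0515), so neither passed. Adcy9, a widely expressed cyclase that responds poorly to forskolin, read 6.63, 6.56 and 6.40 in FHH.Pkhd1, against 6.17, 6.32 and 6.31 in FHH. The 2 groups did not overlap, and the difference of 0.26 ± 0.08 passed without the fold limit (SE, limma adjusted p = 0.0421). In PCK minus SD Adcy9 gave 0.18, with limma adjusted p = 0.121.

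Of the phosphodiesterases, Pde1a and Pde4b varied between pools and Pde3a did not pass in any comparison. Pde1a encodes the calcium- and calmodulin-dependent enzyme that links low calcium to slower cAMP breakdown. Probe set 1369172_at read 5.08, 4.98 and 5.01 in PCK, against 4.96, 5.19 and 4.84 in SD. It read 5.55, 5.44 and 5.94 in FHH.Pkhd1, against 4.67, 4.88 and 5.01 in FHH. The FHH.Pkhd1 arrays were the highest of all 12, and the other 3 pools overlapped. The Pde1a signal was higher in FHH.Pkhd1 than in FHH by 0.79 ± 0.13 (log2, SE, limma adjusted p = 0.00176). Its PCK minus FHH.Pkhd1 difference was -0.62 ± 0.13 (SE, limma adjusted p = 0.00269). Without FHH.Pkhd1 replicate 3, its highest array, the second value was -0.47 and no longer called, while the first was 0.64 and still called. In PCK minus SD the difference was 0.03, with a 95% interval of -0.25 to 0.31. All 4 pool means were below the detection level, so these are differences between weak signals.

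Pde1a is also expressed in vascular smooth muscle, and the smooth muscle markers ranged from 6.98 to 7.08 in FHH.Pkhd1 and 6.89 to 6.93 in FHH. Between these pools none of 6 was called by limma, where 1.3% of all probe sets were called. Without the fold limit 1 of 6 was higher, where 11.2% of all probe sets passed. Markers of adrenal cortex, a tissue that lies against the kidney, moved further. Their mean ranged from 4.98 to 5.08 in PCK, 5.04 to 5.06 in SD, 7.15 to 7.31 in FHH.Pkhd1 and 6.24 to 6.32 in FHH. Of these markers 4 of 6 were called higher in FHH.Pkhd1 than in FHH (0.612% of all probe sets). All 6 were called lower in PCK than in FHH.Pkhd1, as was 1 of the 6 smooth muscle markers, Myh11 (2.76% of all probe sets called lower). Of the adrenal markers 2 reached the detection level in PCK, 3 in SD, 5 in FHH.Pkhd1 and 4 in FHH. Their part in the Pde1a values was not tested.

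Pde4b encodes a cAMP-specific phosphodiesterase that is inhibited by rolipram and abundant in immune cells. Probe set 1374157_at read 7.68, 7.70 and 7.72 in PCK, against 7.27, 7.37 and 7.29 in SD. It read 7.64, 7.73 and 7.74 in FHH.Pkhd1, against 7.70, 7.51 and 7.59 in FHH. The 3 SD arrays were below the other 9, and FHH.Pkhd1 and FHH overlapped. The second probe set, 1369044_a_at, also had its lowest pool in SD, at 5.55, below the detection level, with 5.82 in PCK, 6.15 in FHH.Pkhd1 and 5.92 in FHH. In PCK minus SD the probe sets gave 0.39 ± 0.05 and 0.27 ± 0.09 (SE, limma adjusted p = 0.000297 and 0.0457), and in SD minus FHH -0.29 ± 0.05 and -0.37 ± 0.09 (SE, limma adjusted p = 0.00242 and 0.00903). All 4 values passed without the fold limit and none reached 1.5-fold, and both comparisons use the SD arrays. In PCK minus FHH.Pkhd1 the probe sets disagreed, at -0.01 and -0.33.

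Macrophage and lymphocyte markers were read beside Pde4b. The mean of 6 macrophage markers ranged from 6.09 to 6.14 in PCK and 5.91 to 5.93 in SD, and from 5.92 to 5.97 in FHH.Pkhd1 and 5.83 to 5.90 in FHH. Of the 6, 3 reached the detection level in PCK, 4 in SD, 3 in FHH.Pkhd1 and 3 in FHH. Cd163 and Mrc1, both scavenging receptors of tissue macrophages, were called higher in PCK than in SD, where 2.52% of all probe sets were called. Of the other 4, Adgre1 was lower without the fold limit (-0.33 ± 0.07, SE, limma adjusted p = 0.00577), the rest did not pass, and the median difference of the list was 0.04. None of 5 lymphocyte markers was called there by limma, with or without the fold limit, and 1 of the 5 reached the detection level. The part of macrophages in the Pde4b values was not tested.

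Pde3a, the cGMP-inhibited phosphodiesterase, had 1 probe set, 1369365_at, with all arrays between 3.92 and 4.53. Its differences ran from -0.10 (FHH.Pkhd1 minus FHH) to 0.20 (PCK minus FHH.Pkhd1), with no adjusted p under 0.05. Its pool means were all below the detection level.

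Prkar1a encodes the type I alpha regulatory subunit, which holds the catalytic subunits of protein kinase A inactive until cAMP binds. Its 3 probe sets gave the strongest signals of the members. They averaged 11.00, 10.99 and 10.18 in PCK, 11.02, 10.83 and 10.17 in SD, 11.26, 11.20 and 10.20 in FHH.Pkhd1, and 11.17, 11.00 and 10.10 in FHH, for 1388375_at, 1373951_at and 1386905_at in turn. FHH.Pkhd1 had the highest mean in all 3. The differences of PCK minus FHH.Pkhd1 were -0.27 ± 0.05 and -0.20 ± 0.05 for the first 2 (SE, limma adjusted p = 0.000791 and 0.00474), and -0.03 ± 0.04 for the third (SE, limma adjusted p = 0.63). In FHH.Pkhd1 minus FHH only 1373951_at passed without the fold limit (0.19 ± 0.05, SE, limma adjusted p = 0.0195), and in PCK minus SD again only that one (0.16 ± 0.05, SE, limma adjusted p = 0.0307). SD minus FHH gave -0.15 ± 0.05 and -0.17 ± 0.05 for the first 2 (SE, limma adjusted p = 0.0353 and 0.0192). The third gave 0.06 ± 0.04 there (SE, limma adjusted p = 0.319). None reached 1.5-fold.

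Creb1 encodes CREB, the transcription factor that protein kinase A activates, and it lies on chromosome 9, as Pkhd1 does. No source used here says whether it lies inside the congenic segment. Probe set 1375655_at read 7.09, 7.31 and 7.33 in PCK, against 8.56, 8.30 and 8.26 in SD. It read 7.71, 7.45 and 7.74 in FHH.Pkhd1, against 7.50, 7.49 and 7.28 in FHH. The 3 SD arrays stood above all others, FHH.Pkhd1 overlapped FHH, and FHH overlapped PCK. The signal was 2.19-fold lower in PCK than in SD (-1.13 ± 0.11, log2, SE, limma adjusted p = 1.14e-05) and 1.94-fold higher in SD than in FHH (0.95 ± 0.11, SE, limma adjusted p = 4.94e-05). In FHH.Pkhd1 minus FHH the difference was 0.21, with a 95% interval of -0.02 to 0.44 (limma adjusted p = 0.236), and in PCK minus FHH.Pkhd1 it was -0.39 ± 0.11 (SE, limma adjusted p = 0.0129), under 1.5-fold. The range of its 4 pool means, 1.13, was at percentile 98.1 among all probe sets.

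The other 3 Creb1 probe sets stayed below the detection level in every pool and passed in no comparison. Probe set 1369708_a_at averaged 5.02 in PCK and 4.88 in SD, a log2 difference of 0.14 and opposite in sign to that of 1375655_at. Probe set 1377913_at gave -0.19 ± 0.09 and 1371291_at -0.01 ± 0.07 (SE) in PCK minus SD. The Creb1 calls therefore rest on 1 probe set. With the mean of the 4 probe sets the PCK minus SD difference was -0.30 and the SD minus FHH difference 0.23 (limma adjusted p = 0.00154 and 0.00661). Neither was called, as both were under 1.5-fold. Averaging in 3 weak probe sets shrinks the difference of 1375655_at, so this loss does not test the calls.

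The strain difference on each background was compared with the other by the difference of the 2 differences, PCK minus SD less FHH.Pkhd1 minus FHH. For Creb1 (1375655_at) it was -1.34 ± 0.15 (SE, limma adjusted p = 6.72e-05), made of -1.13 on the SD-derived side and 0.21 on the FHH side. Avpr1a gave -0.87 ± 0.14 (SE, limma adjusted p = 0.00112), from -0.72 and 0.15, and Pde1a gave -0.76 ± 0.18 (SE, limma adjusted p = 0.012), from 0.03 and 0.79. Avpr2 (1369873_at) and Pde4b (1374157_at) passed without the fold limit, at -0.25 ± 0.07 and 0.28 ± 0.08 (SE, limma adjusted p = 0.021 and 0.0239). Their second probe sets did not pass, at -0.18 ± 0.11 for Avpr2 (SE, limma adjusted p = 0.327) and 0.04 ± 0.12 for Pde4b (SE, limma adjusted p = 0.848), where 1369044_a_at gave 0.27 on the SD-derived side and 0.23 on the FHH side. The members called were Creb1 and Avpr1a in PCK minus SD (2.52% of all probe sets) and Pde1a in FHH.Pkhd1 minus FHH (1.3%). With so few calls, the lack of a shared one says nothing on dependence on the background. PCK and SD may differ at loci other than Pkhd1, and FHH.Pkhd1 carries a whole PCK segment of chromosome 9. With 1 pool per strain, the mutation, other loci and differences between pools cannot be told apart on either side.

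The genes whose profile over the 12 arrays was nearest to those of the called members were found among 20545 other probe sets by the root mean square difference of centred log2 values. For Creb1 they were Tgm2, a transglutaminase (0.10), Tspan18, a tetraspanin (0.11), and Abhd3 (0.16), where the profile of Creb1 itself had a root mean square of 0.45. Tgm2 averaged 8.26 in PCK, 9.39 in SD, 8.65 in FHH.Pkhd1 and 8.36 in FHH. For Avpr1a they were Ecrg4 (0.09), Klhl42 (0.09) and Knstrn, a spindle protein (0.10), against 0.28 for Avpr1a itself. For Pde1a they were Lrp5, a Wnt co-receptor (0.09), Eln, which encodes elastin (0.12), and Pdlim5 (0.14), against 0.34 for Pde1a itself. Eln averaged 6.50 in PCK, 6.61 in SD, 7.14 in FHH.Pkhd1 and 6.54 in FHH, with FHH.Pkhd1 highest as for Pde1a. These profiles come from 4 pools, and likeness over 12 arrays mostly reflects 4 means.

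A further 76 genes of the pathway were listed by role, and 72 were measured, each by its probe set with the highest mean, 57 of them at the detection level in at least 1 pool. In PCK minus SD 3 of the 72 were called higher and none lower (limma), where 2.52% of all probe sets were called, with 18 higher and 3 lower without the fold limit (18.7% of all probe sets) and a median log2 difference of 0.04, against 0.0008 over all probe sets. The 3 were Pkib, an inhibitor of protein kinase A (0.65 ± 0.11), Aqp3, the basolateral water channel of principal cells (0.63 ± 0.05), and Slc14a2, the urea transporter of the inner medulla (0.62 ± 0.05; log2, SE). Pkib averaged 3.92 in PCK and 3.27 in SD, below the detection level. Pkib was no longer called without PCK replicate 2 (0.54) or when its probe sets were averaged (0.52), nor was Slc14a2 when its own were averaged (0.30). In FHH.Pkhd1 minus FHH none of the 72 was called by limma, where 1.3% of all probe sets were called. At adjusted p under 0.05 without the fold limit 10 were higher and 4 lower (11.2% of all probe sets), with a median of 0.02. SD minus FHH also had none called, where 2.68% of all probe sets were called. There 3 were higher and 15 lower without the fold limit (21% of all probe sets), with a median of -0.05.

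Among the 7 listed collecting duct targets of vasopressin, 5 were higher in PCK than in SD and none lower without the fold limit. The median difference was 0.44, and 18.7% of all probe sets passed in either direction. Aqp3 averaged 11.20 ± 0.08 in PCK, against 10.58 ± 0.07 in SD, and Slc14a2 averaged 9.13 ± 0.03 in PCK, against 8.51 ± 0.04 in SD (log2, SD, n = 3 arrays). In FHH.Pkhd1 minus FHH 6 of the 7 were higher and 1 lower without the fold limit (11.2% of all probe sets passed). The median there was 0.25 and none was called by limma. In SD minus FHH 6 of the 7 were lower and none higher without the fold limit (21% of all probe sets passed), with a median of -0.30. In PCK minus FHH.Pkhd1 1 was higher and 2 were lower (36.1% of all passed), with a median of -0.08. The principal cell list holds 5 of these 7 genes, and its levels given above moved the same way. The 7 listed CREB target genes had a median of 0.05 in PCK minus SD, against 0.07 on the FHH background, with none called by limma in either. Without the fold limit 1 was higher and none lower in PCK minus SD (18.7% of all probe sets passed). In FHH.Pkhd1 minus FHH 1 was higher and 1 lower (11.2% of all). The 7 genes of the CREB family and coactivators had medians of 0.08 and 0.08, and none was called by limma. In PCK minus SD 1 of them was higher and none lower without the fold limit (18.7% of all probe sets passed). None of them passed in FHH.Pkhd1 minus FHH (11.2% of all).

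In PCK minus FHH.Pkhd1, 3 of the 72 were called lower and none higher (limma), where 5.06% of all probe sets were called and 2.76% called lower. Without the fold limit 13 were higher and 16 lower (36.1% of all probe sets). The 3 called were Sik1, a kinase induced through CREB (-0.81 ± 0.06), Calcr, the calcitonin receptor (-0.68 ± 0.09), and Gna11, a G protein alpha subunit of the Gq family (-0.61 ± 0.08, log2, SE). Calcr averaged 5.49 in PCK, below the detection level, against 6.17 in FHH.Pkhd1. Gna11 was highest in FHH.Pkhd1, with a mean of 7.60, against 7.14 in FHH, and its call was lost with median centring of each array (-0.58), with quantile normalization (-0.52), without PCK replicate 2 (-0.56) and without FHH.Pkhd1 replicate 3 (-0.55). When their probe sets were averaged, Sik1 (-0.33) and Calcr (-0.30) were not called. All 6 adrenal cortex markers were called lower in the same comparison, with a median of -2.29, and their part in these values was not tested.

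**Figure D3:**
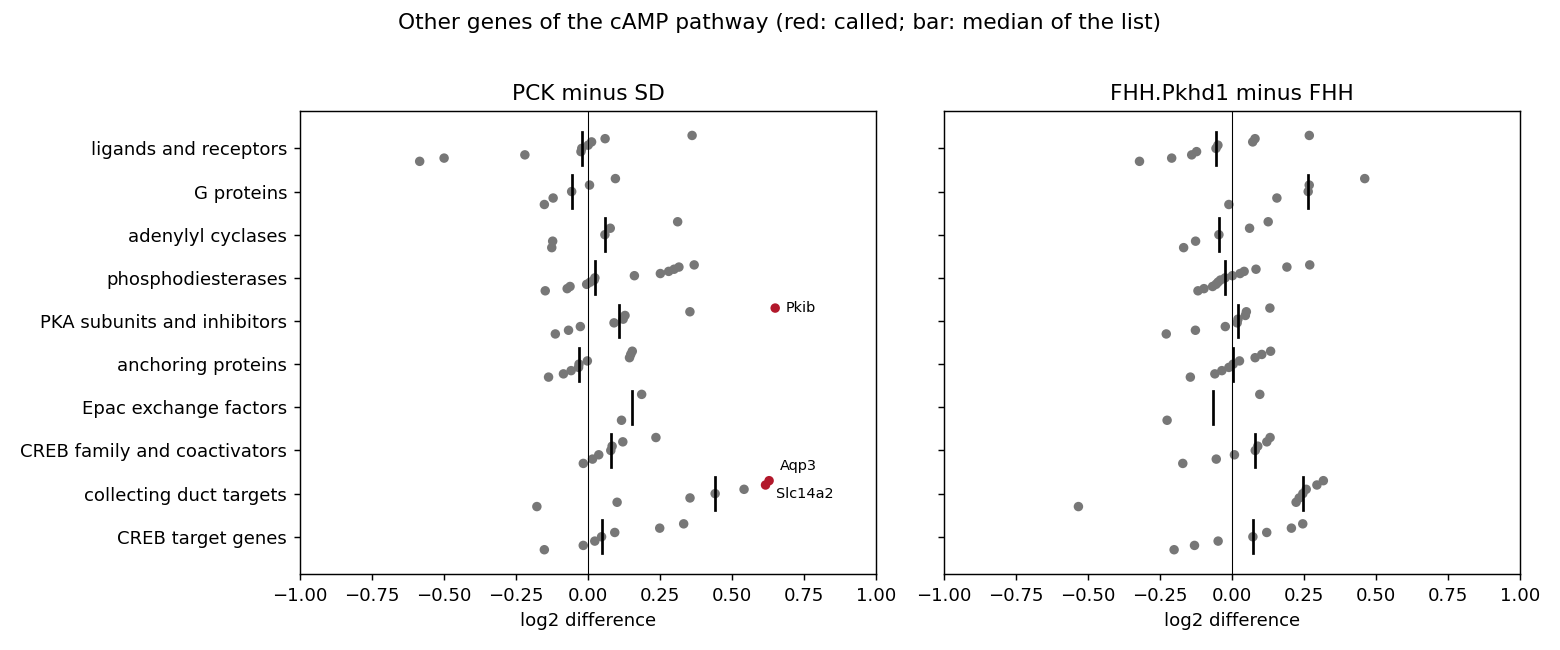
Log2 differences (horizontal axes) of the 72 other pathway genes, grouped by role, in PCK minus SD (left) and in the FHH.Pkhd1 minus FHH comparison (right); each point is 1 gene, red marks calls and the bar is the median of a list. The collecting duct targets have the highest median in PCK minus SD, at 0.44, and no gene is called in FHH.Pkhd1 minus FHH.

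**Figure D4:**
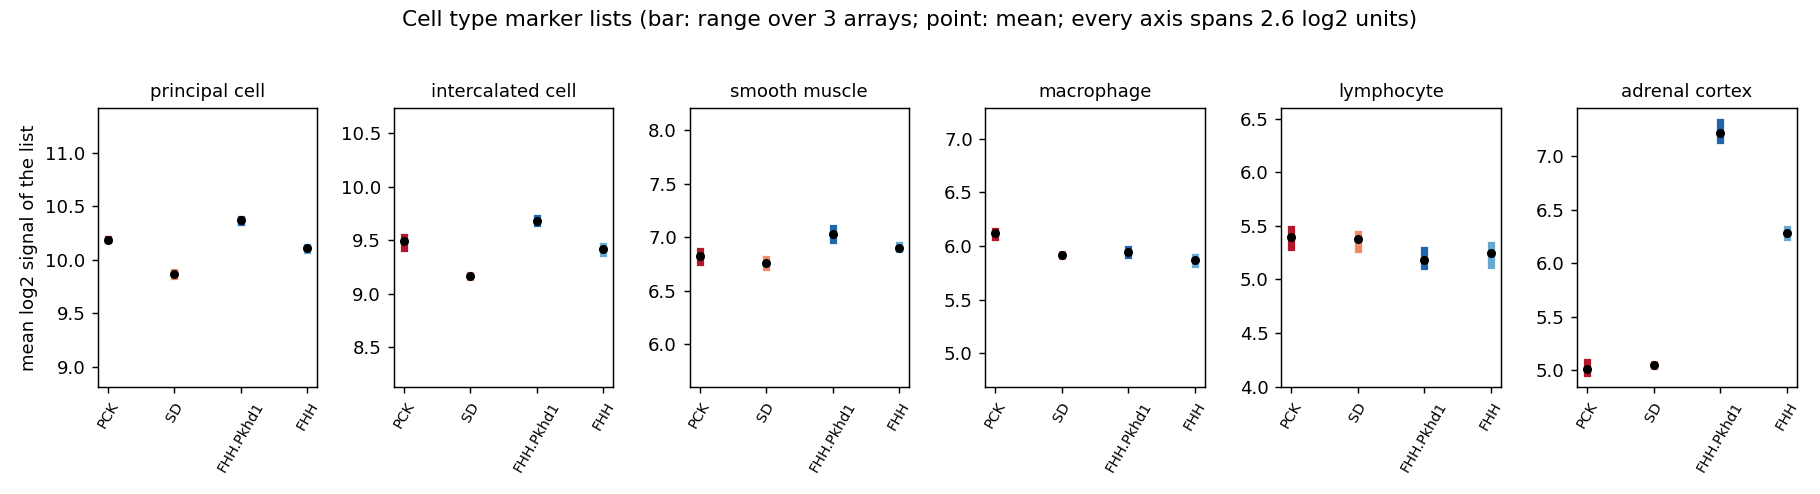
Mean log2 signal (vertical axes) of 6 cell type marker lists in each pool, with the range over its 3 arrays as a bar and the mean as a point. Adrenal cortex markers separate the pools most, at 5.02 in PCK, 5.05 in SD, 7.22 in FHH.Pkhd1 and 6.29 in FHH.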

How the data were processed

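RNA from 4 strain pools was measured on 12 Affymetrix arrays (labels' protocols). The deposited values are log2 probe set signals made by the authors; the submitters' processing notes name RMA and Partek 6.2, and no source used here says in which order, or if all 12 arrays were normalized jointly. They were used as deposited. Of 31099 probe sets, 57 controls were left out; 20826 of the other 31042 carried 1 gene symbol, 436 several and 9780 none.

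Groups were taken from the sample titles. A limma 3.58.1 fit (R 4.3.3) with 1 mean per strain over all 12 arrays and eBayes (prior degrees of freedom 3.8, residual 8) gave the 5 comparisons. No filter on low values was applied, so every member was tested. Members and lists were chosen with earlier results of these data known. Named genes were all member probe sets, pathway genes called in at least 1 comparison, and the 3 nearest profiles to each called member. Gcgr, Cftr, Aqp2 and the markers Cd163, Mrc1, Adgre1 and Myh11 were also named, outside that rule. On simulated data modelled on PCK minus SD (31042 probe sets) the fit called 0% of 1.25-fold, 94% of 1.75-fold and 100% of 2-fold and 4-fold changes, and 0 unchanged probe sets. A call also needed 1.5-fold, so the results at 1.25-fold and for unchanged probe sets were largely set by that limit. The simulated noise was the spread between arrays of a pool, so these rates say nothing on the spread between pools or animals. The number of arrays limits precision, and with 1 pool per strain the calls compare pools only. Alternatives were a low-value filter, 1 value per gene, normalization, variance model, arrays in the fit, fold limits, replicate number as a block, and leaving out each array. Promoters came from RefSeq (GRCr8); figures were drawn with matplotlib 3.10.9.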

Additional observations from a re-analysis of the deposited data

Results flagged for a closer look

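The results here are those in which the PCK minus SD difference and the FHH.Pkhd1 minus FHH difference were unlike in the limma test of that difference, with p adjusted over all probe sets. Creb1 (1375655_at) differed by -1.34, Avpr1a by -0.87 and Pde1a by -0.76, all past 1.5-fold. Avpr2 (1369873_at) differed by -0.25 and Pde4b (1374157_at) by 0.28, both under 1.5-fold. For Pde4b this held for 1 of 2 probe sets, since 1369044_a_at gave 0.04 (limma adjusted p = 0.848), and the second Avpr2 probe set, 1371265_at, gave -0.18 (limma adjusted p = 0.327). Of the other pathway genes Pkib differed by 0.88 ± 0.15 (SE, limma adjusted p = 0.00193), from 0.65 on the SD-derived side and -0.23 on the FHH side, with all pool means below the detection level. The 3 arrays of a pool are too few for a test of single outlying arrays.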

How the results depend on the processing

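Values are given in this order: PCK minus SD, then FHH.Pkhd1 minus FHH, next PCK minus FHH.Pkhd1, next SD minus FHH, and last the difference of the first 2. Counts over all probe sets were 782, 402, 1571, 833 and 1463. With 1 probe set per gene they were 374, 148, 719, 392 and 621 among 14217 genes, and with the mean of the probe sets 330, 121, 640, 348 and 550, fewer features being tested. Without the fold limit they were 5810, 3485, 11196, 6510 and 5406, and at 2-fold 249, 78, 477, 249 and 404. The member counts, 2, 1, 1, 1 and 3 of 18, became 5, 4, 7, 6 and 5 without the fold limit and 1, 0, 0, 0 and 1 at 2-fold. With the filter on the mean over all arrays, which keeps 11 of the 18 and drops Avpr1a and Pde1a, they were 1, 0 and 0 in the first 3 comparisons and 1 in the last. With the mean of the probe sets they were 1 in PCK minus SD and 0 in SD minus FHH, where Creb1 was under 1.5-fold and not called. The Creb1 difference of differences was then -0.33 (limma adjusted p = 0.00818), also under 1.5-fold and not called.

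Leaving out each array gave totals of 781 to 831, 379 to 490, 1491 to 1692, 832 to 863 and 1379 to 1575. Member counts were 0 to 1 in PCK minus FHH.Pkhd1 and 2, 1, 1 and 3 throughout in the others; FHH.Pkhd1 replicate 3 decided that Pde1a call, at -0.47 without it. Avpr1a in PCK minus SD kept its call under all 20 alternatives that gave a value apart from the 2-fold limit, at -0.77 to -0.63, and Pde1a in FHH.Pkhd1 minus FHH likewise under 20, at 0.64 to 0.89. Many of these 20 could hardly lose the call. Dropping the fold limit only loosens it, and 1 value per gene leaves the difference of a gene with 1 probe set unchanged. Leaving out an array of a pool not compared also leaves the difference unchanged. The low-value filter dropped both genes and is not among the 20. No called difference changed sign.

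With the technical replicate number as a block the totals were 781, 403, 1571, 833 and 1450 and the member counts 2, 1, 1, 1 and 3, and no member call changed. Same-numbered arrays of different pools had deviations that correlated at -0.34 to 0.34, and 5 of 12 arrays matched best an array of their own number, so the numbers were not taken to pair the arrays. Weak signal is a limit for Pde1a, Pde3a, Avpr1a and 3 of the 4 Creb1 probe sets, which were below the detection level in most or all pools.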

Other observations

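Some receptors and channels of the pathway varied without being called, and they are named here after their values were seen. Gcgr, the glucagon receptor, was lower in both mutant pools than in their controls, at -0.58 ± 0.06 in PCK minus SD, against -0.32 ± 0.06 on the FHH background (log2, SE, limma adjusted p = 1.33e-05 and 0.00279), both under 1.5-fold. Cftr, the chloride channel of cyst fluid secretion, was at -0.18 ± 0.09 and -0.53 ± 0.09 in the same comparisons (SE, limma adjusted p = 0.21 and 0.00223). The signal of Cftr was below the detection level in every pool, so these are differences between weak signals. Aqp2, the vasopressin-regulated water channel, was at 0.54 ± 0.04 and 0.29 ± 0.04 (SE, limma adjusted p = 3.53e-06 and 0.00103).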
